A study of Mus musculus with 9 samples.

Results

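The chemokine ligands of the mouse heart described here are 10 genes, chosen by symbol from the 21989 gene symbols of the deposited table: Ccl2, Ccl7, Ccl8, Ccl6, Ccl9, Cxcl1, Cxcl12, Cxcl14, Cxcl16 and Cx3cl1. All 10 were in the table. Poly-A RNA of heart tissue was sequenced in 9 male mice of the C57BL/6J strain, aged 18 to 20 weeks, which made up 3 groups of 3: mice that had the TAC operation and received Lingguizhugan decoction (LD), a Chinese herbal preparation of several plants; TAC mice that received distilled water (TAC); and sham-operated mice that also received distilled water (sham). TAC usually stands for transverse aortic constriction, a banding of the aorta that loads the left ventricle with pressure. No sham-operated mice with decoction are in the data, so LD shares the operation with TAC and differs from sham in both operation and treatment.

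Chemokines are small secreted proteins that guide leukocytes by binding to receptors that span the membrane and couple to G proteins. In the heart, Ccl2 and its relatives are known for drawing monocytes from blood after injury or pressure load, Cxcl1 for drawing neutrophils, and Cxcl12 for a constant output by stromal and vessel cells that holds progenitor cells in place. Cxcl16 and Cx3cl1 are made as transmembrane proteins whose chemokine domain can bind cells directly or be cut off by the proteases Adam10 and Adam17. Atypical receptors bind chemokines without G protein signalling and take them up.

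Levels are given as FPKM, fragments per kilobase of transcript and per 1 M fragments of the library, which divides by gene length so that genes can be compared as far as the lengths hold. The lengths used by the authors were recovered too and differ from the annotated exons for several ligands, among them Ccl2 (806 against 1138 bases), Cxcl1 (955 against 1875) and Cxcl14 (2466 against 1827). The fragments behind each value were recovered from the table, as its values are whole multiples of a smallest step, taken here as 1 fragment. Replicates 1, 2 and 3 held 7.43, 18.1 and 16.1 M recovered fragments in LD, against 8.40, 14.9 and 8.96 M in the TAC group and 18.1, 14.5 and 14.9 M in the sham group. In 4 libraries, TAC replicates 2 and 3 and sham replicates 1 and 3, between 86.3% and 90.2% of the recovered counts from 10 to 200 were even numbers, against 47.0% to 49.6% in the other 5 libraries, over 1361 genes. All 3 LD libraries were of the second kind, with TAC replicate 1 and sham replicate 2, so this property cannot be told apart from decoction except within those 5 libraries. There TAC and sham have 1 library each, so a value within the 5 is a comparison with a single heart and is given without an error. The reason for the even counts is unknown. In the 4 mostly even libraries a step may therefore not be 1 fragment, and limits taken from 3 fragments may be too low there. On the first principal component of all genes (29.4% of the variance), the ends were LD replicate 3 (48.3) and TAC replicate 3 (-51.0), with the remaining 7 libraries from -10.4 to 17.1. Heart muscle was present throughout: all 8 cardiomyocyte markers passed the filter, with summed levels of 32092 to 47450 FPKM in LD, 28006 to 33765 FPKM in TAC and 33385 to 36806 FPKM in sham.

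No ligand differed between groups past the threshold of an adjusted p under 0.05 in any of the 3 comparisons, and neither did any other of the 11380 genes tested (limma on log2(FPKM + 1), Benjamini-Hochberg adjustment, 0% called in each). At an unadjusted p under 0.05 the same fits gave 618 genes in TAC against sham, 1004 in LD against TAC and 581 in LD against sham. Of the 10 ligands, 9 passed the filter of at least 1 FPKM in at least 3 libraries, while Cxcl16 did not and has no test. The ligand values below are therefore descriptions of these 9 mice with their spread, and a p that misses the threshold does not show that levels were equal. In RNA of a tissue, fewer cells of a type and less RNA per cell cannot be told apart.

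Of the 10 ligands, 5 lie on chromosome 11 in 2 neighbourhoods of CC chemokine genes and apart from Cxcl16, which is on the same chromosome (GRCm38, GENCODE annotation). Ccl2 (chr11:82035571-82037453, plus strand), Ccl7 (chr11:82045712-82047525, plus) and Ccl8 (chr11:82115185-82116799, plus) follow each other with gaps of 8.26 and 67.7 kb. Ccl9 (chr11:83572919-83578636, minus) and Ccl6 (chr11:83587882-83593087, minus) are 9.24 kb apart. Cxcl16 (chr11:70453983-70459984, minus), Cxcl1 (chr5:90891241-90893115, plus), Cxcl12 (chr6:117168535-117181367, plus), Cxcl14 (chr13:56288643-56296551, minus) and Cx3cl1 (chr8:94772009-94782427, plus) are elsewhere. Exons of Cxcl16 overlap those of Zmynd15 on the opposite strand over 552 bases, and no strand-marking step is named in the labels' protocols, so reads there cannot be told apart. No exon of the other 9 ligands overlapped another gene's.

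Promoters of 7 of the 10 ligands were matched by symbol in RefSeq (GRCm38.p6); those of Ccl2, Ccl7 and Cxcl16 are named only. Those of Ccl6 and Ccl9 are shown because they are neighbouring genes whose levels varied together in these hearts, and that of Cxcl1 because it holds matches to the NF-kappaB motif, a known route of chemokine induction. Each runs 5′ to 3′ on the gene's own strand from 250 bases before the start to 30 bases after it. Capitals in Ccl6 and Ccl9 mark the block that aligned between them, and in Cxcl1 the overlapping NF-kappaB matches. Ccl6 is at chr11:83593058-83593337, Ccl9 at chr11:83578607-83578886 and Cxcl1 at chr5:90890995-90891274.
Ccl6: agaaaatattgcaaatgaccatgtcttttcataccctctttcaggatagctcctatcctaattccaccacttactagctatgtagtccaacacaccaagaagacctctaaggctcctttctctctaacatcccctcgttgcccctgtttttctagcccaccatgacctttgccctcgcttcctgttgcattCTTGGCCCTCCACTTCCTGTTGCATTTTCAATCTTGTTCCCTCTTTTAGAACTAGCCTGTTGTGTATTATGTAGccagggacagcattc
Ccl9: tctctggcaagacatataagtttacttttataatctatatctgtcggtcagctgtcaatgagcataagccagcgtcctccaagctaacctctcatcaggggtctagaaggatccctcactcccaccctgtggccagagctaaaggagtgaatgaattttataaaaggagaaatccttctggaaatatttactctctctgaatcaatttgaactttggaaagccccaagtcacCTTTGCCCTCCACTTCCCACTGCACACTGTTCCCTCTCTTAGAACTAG
Cxcl1: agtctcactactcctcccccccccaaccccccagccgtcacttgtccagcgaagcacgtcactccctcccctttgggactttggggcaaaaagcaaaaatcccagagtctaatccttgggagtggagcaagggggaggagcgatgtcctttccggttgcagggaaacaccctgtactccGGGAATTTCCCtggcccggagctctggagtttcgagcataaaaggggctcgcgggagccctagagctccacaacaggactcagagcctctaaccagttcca
In a local alignment of the windows to 50 bases after the start, the block held 67 aligned bases, of which 58 (86.6%) were identical, and it spanned positions -59 to 15 of Ccl6 and -18 to 49 of Ccl9, so that its end lies past the bases shown for Ccl9. Its score was 38 (1 per identical base, -1 per mismatch, -3 to open a gap), and the next highest of the 21 pairs of ligand promoters, Cxcl1 with Cxcl14, scored 14. The NF-kappaB motif, searched on both strands, was in the promoters of Cxcl1 (2 overlapping matches that begin at -71 and -70) and Ccl9 (1 match at -35) and in 16.0% of all 32851 promoters of this length. The AP-1 motif TGANTCA was in that of Ccl9 alone among the 7 (at -53, a palindrome read on both strands) and in 7.81% of all promoters. A match is only a run of letters in this window.

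The order of the ligands by mean FPKM over the 9 libraries was Cxcl12 (27.0), Ccl6 (17.5), Cxcl14 (6.47), Ccl9 (6.39), Cx3cl1 (3.63), Ccl8 (3.15), Ccl2 (2.70), Cxcl1 (2.59), Ccl7 (1.73) and Cxcl16 (0.266). Cxcl12 was above Ccl6 in 7 of 9 libraries and Ccl6 above Cxcl14 in all 9. Neighbours further down crossed: Cxcl14 was above Ccl9 in 4 libraries, Ccl8 above Ccl2 in 5 and Ccl2 above Cxcl1 in 5. This order rests on the lengths behind the deposited values; rescaled to the annotated exon lengths, the means of Cxcl1 and Ccl7 were 1.32 and 1.73 and those of Cx3cl1 and Ccl8 were 2.90 and 3.15, so these pairs changed places. Among the 11380 tested genes, Cxcl12 stood at the 81.0th percentile of mean FPKM and Ccl7 at the 12.7th.

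**Figure D1:**
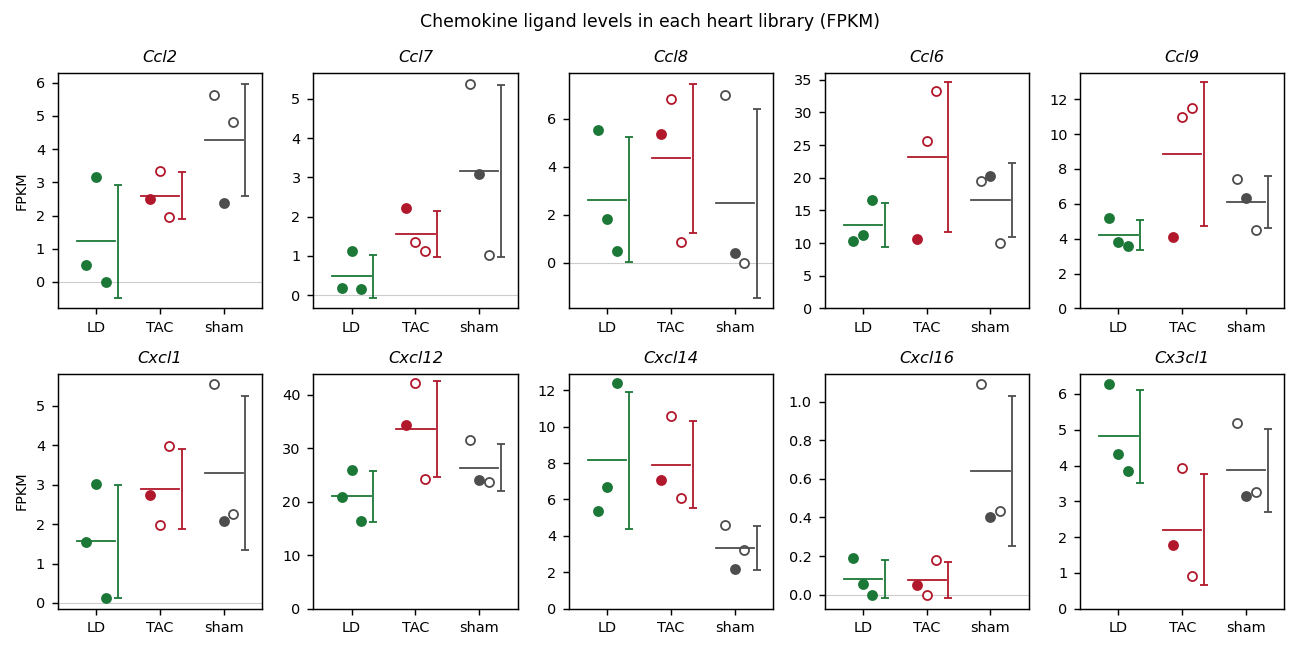
Level of each of the 10 chemokine ligands in FPKM (vertical axis of each panel, own scale) in LD, TAC and sham hearts; each point is 1 library, the line is the group mean and the bar its SD (n = 3), and open points are the 4 libraries with mostly even counts. Cxcl14 in TAC and LD lies above sham without overlap, Cxcl16 in TAC and LD lies below sham without overlap, and the other 8 ligands overlap in at least 2 of the 3 comparisons.

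Ccl2 and Ccl7, both monocyte attractants that act through Ccr2, had their lowest means in LD and their highest in sham. Ccl2 was at 0.501, 3.16 and 0 FPKM in the LD hearts, at 2.51, 3.34 and 1.94 FPKM in TAC and at 5.62, 2.39 and 4.83 FPKM in sham. These values rest on 3, 46 and 0 fragments in LD, 17, 40 and 14 in TAC and 82, 28 and 58 in sham; a count of 0 in LD replicate 3 allows up to 0.232 FPKM, taking 3 fragments as the limit. The LD and sham ranges overlapped only through LD replicate 2, which was above sham replicate 2. The difference was -1.46 ± 0.46 (SE) on the log2(FPKM + 1) scale in LD against sham, with an unadjusted p of 0.00631 and an adjusted p of 0.812 by limma, and it ran from -2.05 to -1.02 with each library left out in turn. In LD against TAC it was -0.95 ± 0.46 (adjusted p = 0.566 by limma; -1.53 without LD replicate 2 and -0.51 without LD replicate 3) and in TAC against sham -0.52 ± 0.46 (adjusted p = 0.997 by limma; -0.81 without sham replicate 2 and -0.33 without sham replicate 1).

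Ccl7 was at 0.168, 1.11 and 0.156 FPKM in LD, at 2.23, 1.34 and 1.11 FPKM in TAC and at 5.38, 3.09 and 1.01 FPKM in sham, from 1, 16 and 2 fragments, 15, 16 and 8 fragments, and 78, 36 and 12 fragments. All 3 LD hearts lay below all 3 TAC hearts, with the highest LD library and the lowest TAC library both at 1.11 FPKM when rounded. Against sham, LD replicate 2 overlapped with sham replicate 3. The difference was -1.40 ± 0.42 (SE, log2 scale) in LD against sham, with an unadjusted p of 0.00465 and an adjusted p of 0.775 by limma. In LD against TAC it was -0.83 ± 0.42 (adjusted p = 0.579 by limma), and in TAC against sham -0.57 ± 0.42 (adjusted p = 0.997 by limma). With each library left out, the values ran from -1.85 to -1.02 in LD against sham and from -1.12 to -0.65 in LD against TAC. TAC against sham ran from -1.02 without sham replicate 3 to -0.19 without sham replicate 1.

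Ccl8, a monocyte and T cell attractant that in the mouse binds Ccr8, was the most scattered ligand. It was at 5.53, 1.84 and 0.488 FPKM in LD, at 5.36, 6.84 and 0.873 FPKM in TAC and at 7.02, 0.404 and 0 FPKM in sham, where 0 fragments allow up to 0.394 FPKM. Each group held both a library near or below 1 FPKM and one above 5 FPKM, and the groups overlapped throughout. The SD of its log2 values over the 9 libraries was 1.20, the largest of the 10 ligands. The differences were 1.02 ± 0.74 in TAC against sham, -0.59 ± 0.74 in LD against TAC and 0.43 ± 0.74 in LD against sham (SE, log2 scale; adjusted p of 0.997, 0.801 and 0.929 by limma). Single libraries weighed heavily: TAC against sham was 0.43 without sham replicate 3 and 1.94 without sham replicate 1, and 2.23 when 0.1 in place of 1 was added to the FPKM, and LD against TAC was -1.22 without TAC replicate 3 and -0.07 without LD replicate 3.

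Ccl6 and Ccl9, a pair of related ligands of Ccr1 found in rodents and made by macrophages among other cells, were high in the same TAC hearts. Ccl6 was at 10.3, 11.3 and 16.6 FPKM in LD, at 10.7, 25.7 and 33.3 FPKM in TAC and at 19.5, 20.3 and 10.0 FPKM in sham. Ccl9 was at 5.19, 3.79 and 3.60 FPKM in LD, at 4.11, 11 and 11.5 FPKM in TAC and at 7.43, 6.36 and 4.47 FPKM in sham. TAC replicates 2 and 3 held the highest values of both genes, while TAC replicate 1 lay within the LD range of both. The difference of Ccl9 in LD against TAC was -0.83 ± 0.35 (SE, log2 scale), with an unadjusted p of 0.0315 and an adjusted p of 0.540 by limma. That of Ccl6 was -0.71 ± 0.39 (adjusted p = 0.588 by limma), which became -1.17 if TAC replicate 1 was left out and -0.39 if TAC replicate 3 was. For Ccl9 the same removals gave -1.25 and -0.61.

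The 2 TAC hearts with high Ccl6 and Ccl9 are also those with mostly even counts, and the count property and the single heart of TAC replicate 1 cannot be told apart. LD against TAC replicate 1 alone gave 0.01 for Ccl9 and 0.21 for Ccl6 on the log2 scale. In TAC against sham, where the difference over all libraries was 0.39 ± 0.35 for Ccl9 and 0.38 ± 0.39 for Ccl6 (adjusted p = 0.997 for each by limma; 0.17 and 0.07 if TAC replicate 3 was left out, 0.81 and 0.84 if TAC replicate 1 was), the mostly even libraries, 2 in each group, gave 0.85 and 1.01, and TAC replicate 1 against sham replicate 2, 1 library each, gave -0.53 and -0.87. Summed over the 13 macrophage markers, all of which passed the filter, levels were 319 to 449 FPKM in LD, 355 to 502 FPKM in TAC and 311 to 466 FPKM in sham, with 493 and 502 FPKM in TAC replicates 3 and 2. Of these markers 11 lay above 0 in TAC against sham and 11 below 0 in LD against TAC, beside 50% of all tested genes above 0 and 60.4% below 0 in those comparisons, and none was called. Their part in the values of Ccl6 and Ccl9 was not tested.

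Cxcl1, a ligand of Cxcr2 that attracts neutrophils, was at 1.55, 3.01 and 0.13 FPKM in LD, at 2.74, 1.97 and 3.97 FPKM in TAC and at 5.55, 2.09 and 2.25 FPKM in sham. LD replicate 3, with 2 fragments, and sham replicate 1, with 96, were the ends of the range, and the groups overlapped in every comparison. The difference was -0.75 ± 0.44 in LD against TAC, -0.84 ± 0.44 in LD against sham and -0.08 ± 0.44 in TAC against sham (SE, log2 scale; adjusted p of 0.615, 0.875 and 1 by limma). Without LD replicate 3 the first 2 were -0.25 and -0.34, and without LD replicate 2 they were -1.17 and -1.25. TAC against sham had no stable sign: it ran from -0.28 to 0.26 with each library left out, and was above 0 without TAC replicate 2 or without sham replicate 1. Of the 7 neutrophil markers, Ly6g and Ngp were at 0 in every library, and the summed level was 3.68 to 25.8 FPKM in LD, 5.85 to 16.6 FPKM in TAC and 2.95 to 7.44 FPKM in sham.

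Cxcl12, the ligand of Cxcr4 and Ackr3, was at 20.8, 25.9 and 16.4 FPKM in LD, at 34.4, 42.2 and 24.2 FPKM in TAC and at 31.5, 24.0 and 23.6 FPKM in sham. It was the most evenly expressed of the 9 tested ligands, with a highest library 2.58 times the lowest and an SD of 0.39 on the log2 scale, and it rests on 1106 to 4493 fragments a library. LD replicate 2 was above TAC replicate 3, and the other LD libraries were below every TAC library. The difference was -0.64 ± 0.27 (SE, log2 scale) in LD against TAC, with an unadjusted p of 0.0317 and an adjusted p of 0.540 by limma, and it stayed between -0.85 and -0.46 with each library left out. In TAC against sham it was 0.31 ± 0.27 and in LD against sham -0.32 ± 0.27 (adjusted p of 0.997 and 0.880 by limma), with ranges of 0.14 to 0.53 and -0.48 to -0.16 over the libraries left out.

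Fibroblasts are a known source of Cxcl12, and fibroblast markers, like Cxcl12, had their highest sum in TAC. Their summed level over 9 genes was 1125 to 1722 FPKM in LD, 1554 to 2470 FPKM in TAC and 999 to 1196 FPKM in sham. All 9 lay above 0 in TAC against sham, beside 50% of all tested genes. In LD against TAC 8 lay below 0, beside 60.4% of all tested genes, and none was called. The exception was Gsn at 0.05, the marker with the highest mean of the 9 (808 FPKM). The highest Cxcl12 value and the highest fibroblast marker sum were both in TAC replicate 2. The other TAC hearts ran the opposite way: replicate 1 had 34.4 FPKM of Cxcl12 with a sum of 1554 FPKM, and replicate 3 had 24.2 FPKM with 1619 FPKM. Within LD both were highest in replicate 2, but within sham Cxcl12 was highest in replicate 1 and the sum in replicate 2. For vessel cells, endothelial marker sums were 717 to 972 FPKM in LD, 809 to 1004 FPKM in TAC and 826 to 1003 FPKM in sham. The highest endothelial sum was in TAC replicate 1. The part of fibroblasts or vessel cells in the Cxcl12 values was not tested.

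Cxcl14, a chemokine of epithelial and stromal tissue whose receptor is not settled, separated all operated hearts from sham. It was at 5.35, 6.69 and 12.4 FPKM in LD, at 7.09, 10.6 and 6.06 FPKM in TAC and at 4.61, 2.18 and 3.21 FPKM in sham. Every operated heart, with or without decoction, was above every sham heart, and the TAC values lay within the LD range. The difference was 1.05 ± 0.34 (SE, log2 scale) in TAC against sham, with an unadjusted p of 0.00798 and an adjusted p of 0.772 by limma, and 1.04 ± 0.34 in LD against sham, with an unadjusted p of 0.00831 and an adjusted p of 0.875. Leaving out each library gave 0.84 to 1.25 for the first and 0.73 to 1.27 for the second. Within the mostly even libraries, 2 in each group, TAC against sham gave 0.90 ± 0.40. Nppa, a natriuretic peptide gene of the atria and of the stressed ventricle, was also without overlap above sham, at 188, 159 and 477 FPKM in LD, at 91.5, 220 and 447 FPKM in TAC and at 59.7, 68.8 and 88.4 FPKM in sham, while the atrial gene Myl7 was between 0 and 42.3 FPKM in LD, 0 and 3.87 FPKM in TAC and 1.98 and 7.51 FPKM in sham. Myl4, also an atrial marker, ranged from 2.35 to 27 FPKM in LD, 4.44 to 7.22 in TAC and 3.11 to 6.45 in sham. Sln, another, ranged from 0.638 to 8.02 FPKM in LD, 0 to 0.776 in TAC and 0 to 0.265 in sham. LD replicate 3, with the highest Cxcl14, had the highest sum of the 4 atrial markers (554 FPKM). In TAC the highest sum (451 FPKM, replicate 3) went with the lowest Cxcl14, and in sham the lowest sum went with the highest. Most of these sums was Nppa, with 477 of the 554 FPKM and 447 of the 451 FPKM, so they cannot tell atrial tissue from a stressed ventricle. Nppa and Myl7 were chosen after their values were seen, and the part of these genes in the Cxcl14 values was not tested. LD and TAC differed by -0.01 ± 0.34, with a 95% interval of -0.73 to 0.72, and this difference was 0.12 after median-of-ratios scaling.

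In TAC against sham, Cxcl14 was the 1 of 9 tested ligands whose groups did not overlap, beside 9.84% of all tested genes (5.22% higher and 4.62% lower). In LD against sham it was again the 1 of 9, beside 13.2% of all genes (4.47% higher and 8.76% lower), and in LD against TAC the 1 of 9 was Ccl7, beside 11.9% of all genes (3.73% higher and 8.14% lower). The ligands' counts of 1 in 9 are near those shares. At an unadjusted p under 0.05, 1 ligand (Cxcl14, higher) passed in TAC against sham, beside 5.43% of all genes (2.85% higher and 2.58% lower). In LD against TAC 3 passed, Cx3cl1 higher and Ccl9 and Cxcl12 lower, beside 8.82% of all genes (2.51% higher and 6.31% lower). In LD against sham 3 passed, Cxcl14 higher and Ccl2 and Ccl7 lower, beside 5.11% of all genes (1.52% higher and 3.59% lower).

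Cxcl16, a transmembrane chemokine whose receptor is Cxcr6 on T and NK cells, was near 0 in every operated heart. It was at 0.190, 0.0557 and 0 FPKM in LD, at 0.0479, 0 and 0.180 FPKM in TAC and at 1.09, 0.402 and 0.433 FPKM in sham. The fragments behind these levels were 7, 5 and 0 in LD, 2, 0 and 8 in TAC and 98, 29 and 32 in sham, and the 0 counts allow up to 0.0376 FPKM in LD replicate 3 and 0.0406 FPKM in TAC replicate 2. All 3 sham hearts were above all 6 operated hearts, and 1 sham heart reached 1 FPKM, so the gene was below the filter and was not tested in the fits reported here. When the filter was lowered to 0.1 FPKM in 3 libraries its adjusted p by limma was 0.819 in TAC against sham and 0.904 in LD against sham. On the log2(FPKM + 1) scale the differences were -0.59 and -0.58, and with 0.1 added in place of 1 they were -2.09 and -2.05, so this scale understates the change of so low a gene. The recovered length of 4968 bases was above the 3021 bases of annotated exons, so the gene model used by the authors was another, and the overlap with Zmynd15 applies.

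Cx3cl1, the other transmembrane ligand, which binds Cx3cr1 on monocytes and macrophages and is made by endothelium and nerve cells, had its lowest mean in TAC. It was at 6.29, 4.31 and 3.84 FPKM in LD, at 1.78, 3.93 and 0.923 FPKM in TAC and at 5.20, 3.15 and 3.25 FPKM in sham. TAC replicate 2 was just above LD replicate 3, and the other TAC libraries were below every LD and sham library. The difference was 0.94 ± 0.35 (SE, log2 scale) in LD against TAC, with an unadjusted p of 0.0187 and an adjusted p of 0.537 by limma, and it lay between 0.63 and 1.31 with each library left out. It was -0.68 ± 0.35 in TAC against sham (adjusted p = 0.958 by limma; range -1.05 to -0.37 over the libraries left out) and 0.26 ± 0.35 in LD against sham (adjusted p = 0.915 by limma). Cx3cl1 was the 1 tested ligand above 0 in LD against TAC, with Cxcl14 next, at -0.01.

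**Figure D2:**
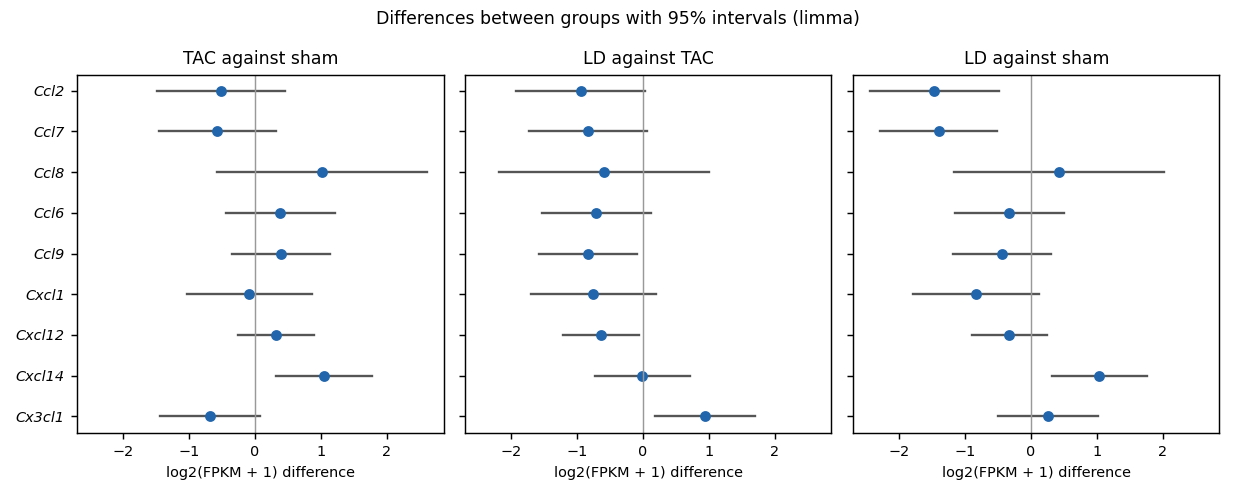
Differences of the 9 tested chemokine ligands on the log2(FPKM + 1) scale (horizontal axis) in TAC against sham, LD against TAC and LD against sham; points are limma's estimates and lines their 95% intervals before adjustment, and a value above 0 means higher in the group named first. In LD against TAC, 8 of 9 points lie below 0, among them Cxcl14 at -0.01, with Cx3cl1 at 0.94 on the other side.

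Over the 9 tested ligands the median log2 difference was -0.71 in LD against TAC, with 8 below 0, and the median of all tested genes in that comparison was -0.10, with 60.4% below 0. Of those 8, Cxcl14 lay at -0.01 and changed sign under other settings. In LD against sham the ligands' median was -0.33 with 6 below 0, beside -0.11 and 62.8% for all genes. In TAC against sham it was 0.32 with 4 below 0, beside 0.00 and 50% for all genes. The first 2 comparisons share the LD libraries, and TAC and sham are each in 2 comparisons, so these medians are not independent of each other.

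The summed level of the 10 ligands was 55.9, 61.2 and 53.6 FPKM in LD, 71.0, 107 and 84.1 FPKM in TAC and 92.9, 64.4 and 53.1 FPKM in sham. All 3 LD sums lay below all 3 TAC sums, while the sham sums spanned both. Cxcl12 made up 28.7% to 48.5% of the sum and was the highest ligand in 7 libraries, with Ccl6 the highest in LD replicate 3 and TAC replicate 3. Without Cxcl12 the sums were 35.1, 35.2 and 37.3 FPKM in LD, 36.6, 64.8 and 59.9 FPKM in TAC and 61.4, 40.4 and 29.5 FPKM in sham, so that TAC replicate 1 then lay within the LD range.

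**Figure D3:**
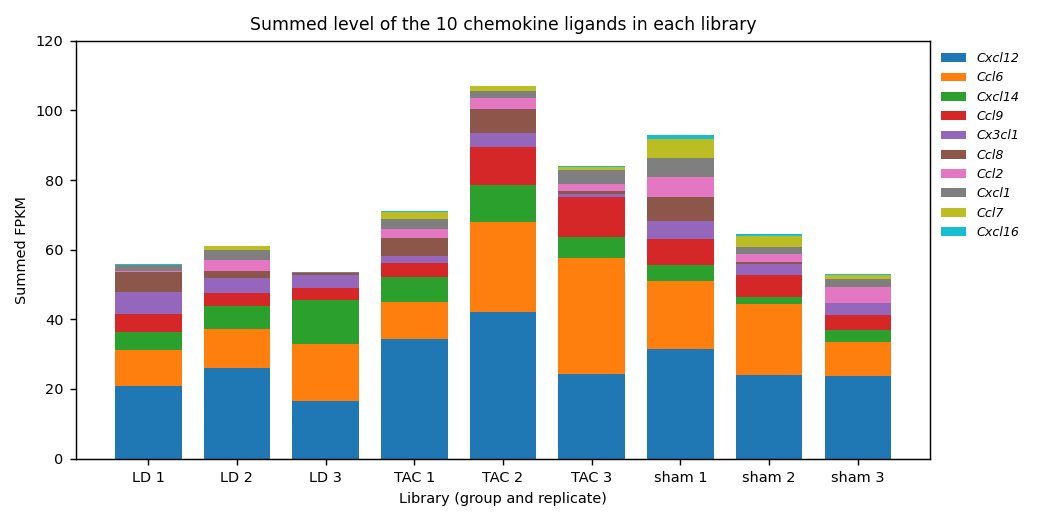
Summed FPKM of the 10 chemokine ligands in each library (bars, grouped as LD, TAC and sham replicates 1 to 3), with each ligand's part stacked from the highest mean at the bottom. The LD bars reach 53.6 to 61.2 FPKM, the TAC bars 71.0 to 107 FPKM and the sham bars 53.1 to 92.9 FPKM, and Cxcl12 and Ccl6 form the 2 lowest layers.

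Pairs of the 9 tested ligands were compared across the 9 libraries, 36 pairs in all, on log2(FPKM + 1). Ccl6 and Ccl9, the neighbours with the aligned promoter block, had the highest Pearson's r at 0.85 (exact permutation p = 0.00387, 0.139 after adjustment over the 36 pairs) and a Spearman's rho of 0.67 (exact permutation p = 0.0589, 0.582 after adjustment). Their r was 0.77 without the 2 libraries farthest from the median of Ccl6 and 0.80 after the group means were removed. Ccl2 and Cxcl1 had an r of 0.80 (exact permutation p = 0.00874, 0.157 after adjustment) and a rho of 0.57 (exact permutation p = 0.121, 0.582 after adjustment). Without LD replicates 3 and 1, the 2 libraries farthest from the median of Ccl2, the r was 0.27, so the relation rests on those libraries. Ccl2 and Ccl7, also neighbours, had an r of 0.75 (exact permutation p = 0.0203, 0.244 after adjustment) and a rho of 0.55 (exact permutation p = 0.133, 0.582 after adjustment). Their r was 0.33 without the same 2 LD libraries. No pair passed the adjustment, and all points share their library's depth and scaling.

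**Figure D4:**
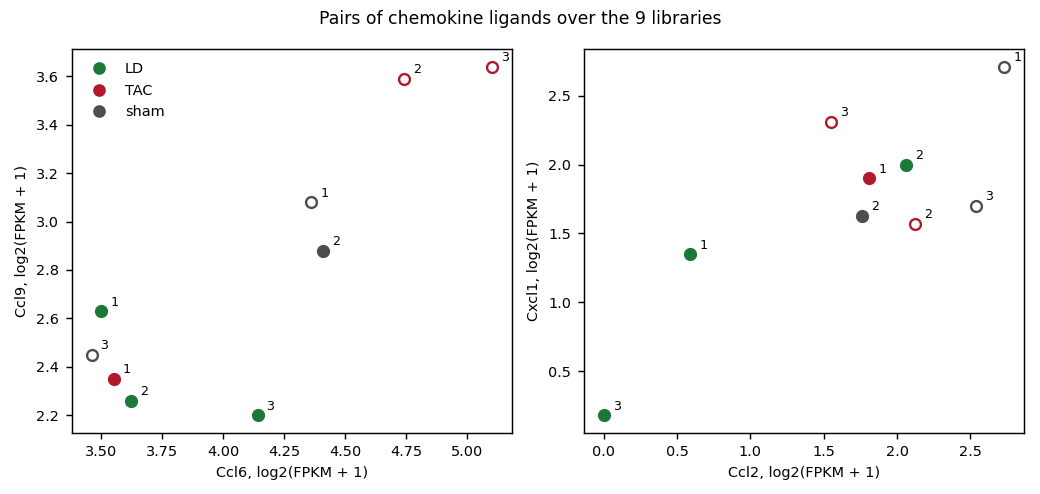
Levels of Ccl9 against Ccl6 (left) and of Cxcl1 against Ccl2 (right), both axes in log2(FPKM + 1), with 1 point for each of the 9 libraries, numbered by replicate and coloured by group; open points are the 4 libraries with mostly even counts. TAC replicates 2 and 3 are at the top right for Ccl6 and Ccl9 (r = 0.85). For Ccl2 and Cxcl1 (r = 0.80), LD replicate 3 is at the bottom left and sham replicate 1 at the top right. LD replicates 3 and 1, the lowest in Ccl2, are the libraries on which that relation rests.

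Genes whose levels ran most like each ligand's were taken by the highest Pearson's r of log2 values over the 9 libraries, 2 for each ligand and with no test. Ccl2 ran most like Ifi44 (r = 0.95), an interferon response gene, and Kdm5b (0.94), a histone demethylase. Ccl7 ran most like Fhl2 (0.92), a LIM protein of heart muscle, and Ptpn3 (0.90), and Ccl8 most like Usp53 (0.93) and H6pd (0.92). Ccl6 ran most like Tmed7 (0.98) and Tgfbr2 (0.97), the type II TGF-beta receptor, and Ccl9 most like Sp3 (0.99), a transcription factor, and Ube2e3 (0.97). For Cxcl1 these were Rsad1 (0.98) and Nfxl1 (0.97), and for Cxcl12 Tmem218 (0.96) and Cyfip1 (0.96). For Cxcl14 they were Pik3c3 (0.95) and Sfrp2 (0.92), a secreted Wnt modulator, and for Cx3cl1 Lcn2 (0.94), the acute phase protein lipocalin, and Hist3h2ba (0.93). Genes so chosen share the libraries' depth and scaling, and the values are descriptions of these 9 libraries.

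Of the 18 chemokine receptors in the table, 4 passed the filter, among them Ccr2, Cxcr4 and Cx3cr1, and Ccr6, Ccr8 and Cxcr1 were at 0 in all 9 libraries; none was called. The absent Ccr8 is the mouse receptor of Ccl8. Ccr1, the receptor of Ccl6 and Ccl9, was between 0 and 0.410 FPKM in LD, 0 and 2.71 FPKM in TAC and 0.0390 and 0.584 FPKM in sham. Cxcr2, the receptor of Cxcl1, did not exceed 0.319 FPKM in any library, Ccr3 did not exceed 0.0162 FPKM, and Cxcr6, the receptor of Cxcl16, reached 1.65 FPKM in LD, 0.355 FPKM in TAC and 0.355 FPKM in sham.

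Ccr2, the receptor of Ccl2 and Ccl7, was at 2.04, 1.02 and 0.816 FPKM in LD, at 1.08, 1.49 and 3.15 FPKM in TAC and at 2.62, 2.33 and 1.15 FPKM in sham, with overlap in every comparison. Cx3cr1 was at 2.37, 2.65 and 0.714 FPKM in LD, at 2.28, 4.15 and 4.61 FPKM in TAC and at 3.03, 0.881 and 0.787 FPKM in sham. Its difference was 0.94 ± 0.40 in TAC against sham (adjusted p = 0.903 by limma), beside -0.68 ± 0.35 for its ligand Cx3cl1. Cx3cr1 was highest in TAC replicates 2 and 3, the TAC libraries with mostly even counts and the higher macrophage marker sums.

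Cxcr4 was at 2.91, 0.776 and 3.76 FPKM in LD, at 0.128, 1.41 and 2.29 FPKM in TAC and at 3.16, 2.23 and 2.46 FPKM in sham, with adjusted p of 0.650 in LD against TAC and 0.958 in TAC against sham by limma. The second receptor of Cxcl12, the atypical receptor Ackr3, was far more abundant, at 43.4, 40.9 and 52.9 FPKM in LD, at 34.7, 77.9 and 70.8 FPKM in TAC and at 45.3, 57.0 and 41.0 FPKM in sham, with the groups overlapping. Ackr3 was above Cxcl12 itself in all 9 libraries. Ackr4, which takes up Ccl19, Ccl21 and Ccl25, was at 1.71, 1.20 and 2.12 FPKM in LD, at 1.74, 4.15 and 4.48 FPKM in TAC and at 2.45, 1.15 and 1.10 FPKM in sham (0.77 ± 0.34 in TAC against sham, adjusted p = 0.905 by limma). Ackr2, which takes up CC chemokines such as Ccl2, stayed at or below 1.37 FPKM, and Ackr1 at or below 0.928 FPKM. Of the 5 atypical receptors 4 were tested. All 4 lay above 0 in TAC against sham, beside 50% of all tested genes. All 4 lay below 0 in LD against TAC, beside 60.4% of all tested genes, and none was called. Not all moved far: in LD against TAC, Ackr2 (-0.01) and the atypical receptor Ccrl2 (-0.15) were close to the median of all genes (-0.10). In TAC against sham Ccrl2 was at 0.065.

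**Figure D5:**
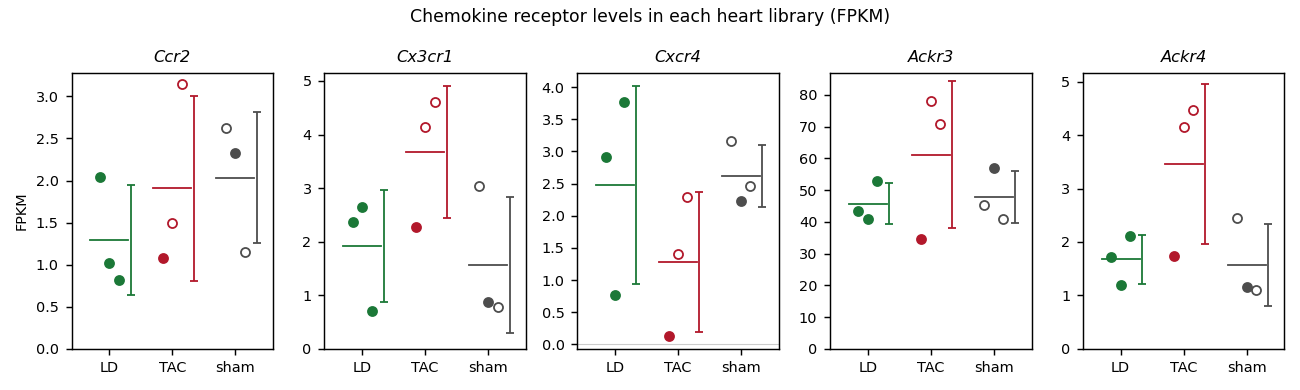
Level in FPKM (vertical axis of each panel, own scale) of 3 chemokine receptors and 2 atypical receptors in LD, TAC and sham hearts; points are libraries, lines group means and bars SDs (n = 3), and open points are the 4 libraries with mostly even counts. Cx3cr1 in TAC lies at 2.28 to 4.61 FPKM and overlaps both other groups, and Ackr3 is the most abundant of the 5.

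Of 6 proteases that release or trim chemokines, 5 were tested and all 5 lay below 0 in LD against TAC, beside 60.4% of all tested genes; none was called, and Adam10 (-0.13) was close to the median of all genes (-0.10). Mmp14, a membrane metalloprotease that can trim Cxcl12, was at 10.3, 15.7 and 7.73 FPKM in LD, at 19.4, 26.1 and 26.9 FPKM in TAC and at 19.5, 17.9 and 22.5 FPKM in sham. Every LD heart was below every other heart. The difference was -1.08 ± 0.27 (SE, log2 scale; unadjusted p = 0.00155, adjusted p = 0.400 by limma) in LD against TAC and -0.82 ± 0.27 (adjusted p = 0.875 by limma) in LD against sham. Adam10 and Adam17, which cut Cx3cl1 and Cxcl16 from the membrane, differed by -0.13 ± 0.35 and -0.34 ± 0.30 in LD against TAC and by -0.15 ± 0.35 and -0.00 ± 0.30 in TAC against sham. Dpp4, which shortens many chemokines at their N terminus, stayed at or below 0.973 FPKM.

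Of the other chemokine ligands, 29 of 30 listed were in the table, 8 passed the filter and none was called, while Ccl1, Ccl20, Ccl21b, Ccl26 and Cxcl3 were at 0 in every library. Ccl12, a mouse monocyte attractant in the cluster of Ccl2, was at 0.251, 1.03 and 1.63 FPKM in LD, at 10.7, 2.51 and 2.50 FPKM in TAC and at 2.88, 0.385 and 2.13 FPKM in sham. All its LD values were below all TAC values, with a difference of -1.47 ± 0.50 (SE, log2 scale; adjusted p = 0.537 by limma), as for Ccl7 in the same comparison. Ccl27a, a ligand of Ccr10 best known from skin, was at 6.84, 7.36 and 9.17 FPKM in LD, at 3.52, 5.79 and 4.66 FPKM in TAC and at 8.80, 7.93 and 11.5 FPKM in sham. Its TAC values lay below all others, at -0.89 ± 0.27 in TAC against sham (adjusted p = 0.772 by limma) and 0.65 ± 0.27 in LD against TAC (adjusted p = 0.540 by limma), and its exons overlap those of Il11ra1 on the opposite strand over 8 bases. Pf4, a chemokine of platelets and megakaryocytes, was at 2.06, 0.706 and 6.73 FPKM in LD, at 0.304, 0.914 and 2.66 FPKM in TAC and at 0.188, 0.468 and 0.228 FPKM in sham (1.41 ± 0.50 in LD against sham, adjusted p = 0.875 by limma).

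Of 19 inducers and response genes of NF-kappaB, 13 were tested and none was called, and the cytokines Il6 and Tnf were at 0 in every library. Il1b, another inducer of chemokines, reached at most 1.29 FPKM. Zfp36, whose protein shortens the life of chemokine mRNAs such as that of Cxcl1, was at 44.2, 26.3 and 41.2 FPKM in LD, at 20.6, 19.5 and 21.0 FPKM in TAC and at 31.7, 31.9 and 26.6 FPKM in sham. Its TAC values were below all others, with differences of 0.81 ± 0.24 (SE, log2 scale; unadjusted p = 0.00507, adjusted p = 0.520 by limma) in LD against TAC and -0.54 ± 0.24 (adjusted p = 0.909 by limma) in TAC against sham. Relb, a subunit of NF-kappaB, was at 7.20, 8.19 and 5.91 FPKM in LD, at 2.34, 4.40 and 4.63 FPKM in TAC and at 8.27, 5.84 and 3.73 FPKM in sham, at 0.79 ± 0.32 in LD against TAC (adjusted p = 0.537 by limma).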

How the data were processed

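Poly-A RNA of 9 hearts was analysed from 1 table of FPKM values that the authors deposited. Per the submitters' processing notes the tools included fastp 0.20.0, Cufflinks 2.2.1, HTSeq 0.7.2, HISAT2 2.1.0, CASAVA 1.8 and DESeq, on GRCm38; their roles and the annotation used were not given in the sources used here. Per the labels, each group is 3 biological repeats, and no litter, batch or day is named. The p-values measure the spread between these libraries, in which differences of mouse, library and kind of count are not separated. With group means removed, same-numbered libraries had r of -0.24 to 0.15 over 9 pairs, and libraries of other numbers -0.27 to 0.37 over 18 pairs. Whether equal numbers share a litter, batch or day cannot be told from these values, and samples were treated as unpaired.

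All 16262 genes above 0 were given whole fragments within 0.001. This is partly built in: the search kept only such multiples, and a gene above 0 in 1 library was set to 1 fragment. Ccl21a, for example, got 1 fragment at 5.57 FPKM in sham replicate 3 and a length of 12 bases, against 870 annotated. The totals were set by the scale at which the most gene lengths came out whole, 98.5% of 1328 checked. Limits from 3 fragments cover counting error only and take each step as 1 fragment, also in the mostly even libraries. Genes with at least 1 FPKM in at least 3 libraries (11380) were fitted as log2(FPKM + 1), which understates differences of low genes, with limma 3.58.1 in R 4.3.3: 3 group means, 6 residual degrees of freedom, trend, two-sided moderated tests, Benjamini-Hochberg adjustment over all tested genes. On simulated data for TAC against sham with these 11380 genes, changes were put only into genes with a mean log2(FPKM + 1) above 3, on that scale. Of 100 such genes with a 2-fold change 34% were called, and of 100 with a 4-fold change 100%, and 12 of 146 calls were false. Among the ligands only Cxcl12 and Ccl6 have such a mean, so these rates do not cover the others. Alternatives changed the pseudocount, filter, scaling, fit and libraries; those on even counts were added after the data were seen. Named are all 10 ligands, their receptors, Adam10, Adam17, Dpp4 and up to 4 genes of smallest p in each list; 1 gene that this rule names is not reported here. The ligands, lists and tests were chosen with earlier results of these data known. Promoters were aligned with Biopython 1.88.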

Additional observations from a re-analysis of the deposited data

How the results depend on the processing

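Of 508 ligand values recomputed under the alternatives, none passed the threshold (smallest adjusted p 0.176, Ccl9 in LD against TAC without TAC replicate 1), 18 changed sign and the cause was not tested. The number of genes called in TAC against sham, 0 in the fit reported, was 4 with voom on recovered counts, 6 in the mostly even libraries alone and 0 to 13 with each library left out (13 without TAC replicate 1, 1 without TAC replicate 2 or sham replicate 3). In LD against sham it was 3 with voom, 10 with the 2 groups fitted alone and 0 to 1 with each library left out (1 without sham replicate 3), and in LD against TAC 0 throughout. With the mostly even libraries halved, voom called 0. A replicate block gave 0 calls in each comparison and changed no call. Within the 5 libraries without even counts (1 TAC, 1 sham), TAC against sham gave 0.05 for Ccl2, -0.87 for Ccl6, -0.53 for Ccl9 and 0.28 for Cxcl1, and LD against TAC 0.21 for Ccl6 and 0.01 for Ccl9. Cxcl1 in TAC against sham was -0.28 to 0.26 with each left out (above 0 without TAC replicate 2, at 0.10, or sham replicate 1). Cxcl14 in LD against TAC was 0.12 after median-of-ratios scaling, 0.00 with voom, 0.25 with the kind of count as a term, 0.01 with voom on halved counts, 0.10 in the 5 libraries and -0.32 to 0.22 with each library left out. Ccl8 in LD against sham was -0.15 to 1.35 with each left out (below 0 without LD replicate 1 or sham replicate 3). Depth limits Ccl2, Ccl7, Ccl8, Cxcl1 and Cxcl16, each of which had a library at or below 3 fragments.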

Other observations

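Ccl5, a T cell and monocyte attractant that was not singled out by the smallest p in its list in each comparison, was among the most uneven chemokines. Ccl5 was at 1.77, 9.98 and 0.117 FPKM in LD, at 1.12, 3.28 and 0 FPKM in TAC and at 9.75, 4.92 and 0.758 FPKM in sham. The summed level of the 9 T and NK cell markers was 0.430, 5.64 and 0.617 FPKM in LD, 3.07, 2.86 and 1.12 FPKM in TAC and 6.81, 1.28 and 2.26 FPKM in sham for the same replicates. The library with the highest Ccl5 also had the highest marker sum in LD and in sham but not in TAC; Ccl5 was chosen after the values were seen and no relation was tested. Summed haemoglobin and other erythroid markers were 1205 to 2274 FPKM in LD, 2238 to 11051 FPKM in TAC and 516 to 3342 FPKM in sham, which gives the range of blood RNA beside these levels.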
